A study of Homo sapiens with 6 samples.

Results

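The genes described here are those of glucose uptake, glycolysis and the hypoxia response, measured by RNA-seq in A2780, an established line of human ovarian cancer cells, with and without a short hairpin against USP39. The members were 37 genes given by symbol, and a gene's value was the sum of the counts over all transcripts that carry its symbol. Of the 37, 36 had a count in the table, among 16571 symbols in all. P4HA2 was not analysed here. By role the 36 are 2 glucose transporters, 17 glycolytic enzymes, 4 regulators of glycolytic flux, 10 other targets of the hypoxia-inducible factors (HIFs) and 3 HIF subunits.

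With these libraries the study asked whether loss of USP39, a protein of the spliceosome, changes splicing globally in ovarian cancer cells. It reported a smaller share of exonic reads and larger shares of intronic and intergenic reads after knockdown. The comparison was between 3 libraries of cells infected with the control lentiviral vector pGIPZ-NC and 3 of cells infected with a lentivirus carrying shUSP39 in the same vector, all of the single line A2780 and labelled as biological triplicates. The study's methods describe stable lines selected with puromycin and more than 1 hairpin, and the labels do not say which hairpin the shUSP39 libraries carry. No label mentions low oxygen. The labels were not checked against the targeted gene, since USP39 was not analysed here.

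As background, glycolysis breaks glucose down to pyruvate in the cytosol, and lactate dehydrogenase then turns pyruvate into lactate, which lets the pathway run without oxygen. Many of its enzymes and the glucose transporters are switched on by HIF, a transcription factor made of an oxygen-sensitive alpha subunit (HIF1A or EPAS1) and the stable partner ARNT. When oxygen is present, prolyl hydroxylases such as EGLN1 mark the alpha subunit for destruction, so HIF activity is set largely at the protein level, which these data do not measure. HIF also induces genes outside glycolysis, among them those for blood vessel growth, pH control and mitophagy.

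The libraries held between 28294819 and 32939264 counts. Log2 CPM (CPM being counts scaled to the same total in each library) correlated at 0.988 to 0.990 within a group and at 0.968 to 0.969 between groups. The number of symbols with at least 1 count was 12662 to 12809 in the pGIPZ-NC libraries and 12819, 15446 and 14890 in shUSP39 replicates 1, 2 and 3, so shUSP39 replicates 2 and 3 stood apart. Of the ovarian epithelial markers, EPCAM, CDH1 and PAX8 had at most 6 counts in any library, and the summed level of the 8 with a count was 47.2 to 49.6 CPM in the controls and 34.5 to 41.2 CPM under shUSP39. Within that sum KRT18 was higher (22.4 to 32.9 CPM, adjusted p = 1.51e-05) and KRT19 lower (24.4 to 1.96 CPM, adjusted p = 3.51e-17), and KRT8 went from 26 to 37 counts in the controls to 0 to 3. MUC16, which was not tested, had 5, 1 and 1 counts in the controls and 6, 150 and 71 in shUSP39 replicates 1, 2 and 3. The 5 fibroblast markers summed to 1134 to 1198 CPM and 455 to 475 CPM, nearly all of it COL1A2, while leukocyte and endothelial markers summed to at most 0.490 and 2.03 CPM. The part of these differences in the results below was not tested, and in bulk RNA fewer cells of a kind and less RNA per cell cannot be told apart.

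The level measured for a member was set beside the number of transcripts its gene has. RefSeq lists 183 messenger RNA accessions for the 36 members, and 56 of them had counts in the table used here. The 10 members with a single accession had a median of 36.0 CPM per kb of transcript, the 11 with 2 or 3 had 6.29, and the 15 with more than 3 had 0.584. Single members departed from this order, among them ENO1 with 3 accessions at 583 and CA9 with 1 at 0.222 CPM per kb, and the cause of the low levels was not tested. Over all genes in the table the medians fell in the same order, from 1.17 to 0.597 and 0.367 CPM per kb.

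**Figure D1:**
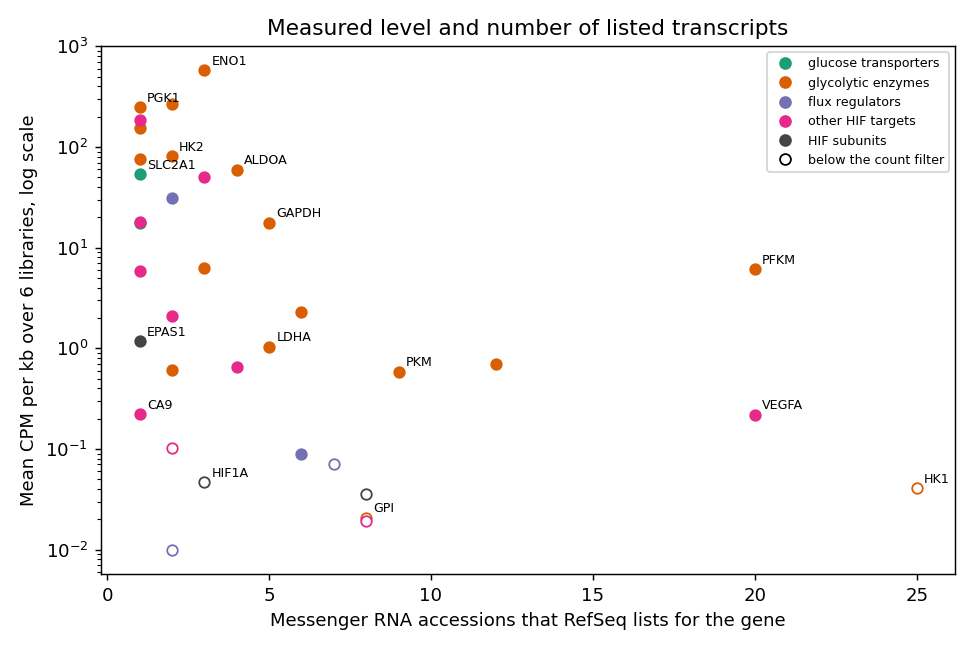
Mean level over the 6 libraries (CPM per kb of the representative transcript, log scale) against the number of messenger RNA accessions that RefSeq lists for each of the 36 members, with open points for members below the count filter. Members with 1 accession reach 248 CPM per kb (PGK1), while HK1, with 25 accessions, sits at 0.0405.

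Several central genes were measured through only some of their listed transcripts. PKM, pyruvate kinase, was measured by 2 of its 9 accessions at 21 to 56 counts per library. LDHA, the lactate dehydrogenase subunit that favours lactate formation, was measured by 1 of 5 (NM_001165414.1), and LDHB by NM_001174097.2 alone. VEGFA, the main growth factor for blood vessels, was measured by 1 of 20 accessions at 14 to 44 counts. GAPDH, the reference gene in the study's qPCR, was at 589 to 815 counts over 3 of its 5 accessions. The values of these genes describe the transcripts named and not the whole output of the gene.

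Of the 36 members, 28 passed a filter on low counts that asks for about 0.322 CPM in 3 libraries. The other 8 were HK1, GPI, PFKFB3, PDK1, EGLN3, NDRG1, HIF1A and ARNT, with 0 to 20 counts in any library. PFKFB4 passed with 2 control libraries and 1 shUSP39 library over the minimum, CA9 with 2 of each, and the remaining 26 with all 6 libraries. No member passed through 1 group alone.

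With edgeR's quasi-likelihood test, and p-values adjusted by Benjamini-Hochberg over all 10695 genes tested, 10 of the 28 members passed an adjusted p under 0.05. SLC2A1, HK2, ALDOC, GAPDH, LDHB, ADM and EPAS1 were higher under shUSP39, and SLC2A3, ENO2 and BNIP3 were lower. These 10 were 35.7% of the members tested, beside 33.6% of all genes, so the share past the test was near the background. Beyond 2-fold the members were EPAS1, which was higher, and SLC2A3, which was lower, together 7.14%, beside 6.81% of all genes (4.53% higher and 2.28% lower). The groups did not overlap in 15 of the 28 (53.6%), beside 44.2% of all genes. The median log2 fold change was 0.10 over the members and 0.0085 over all genes, and the median absolute log2 fold change was 0.22 for both.

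**Figure D2:**
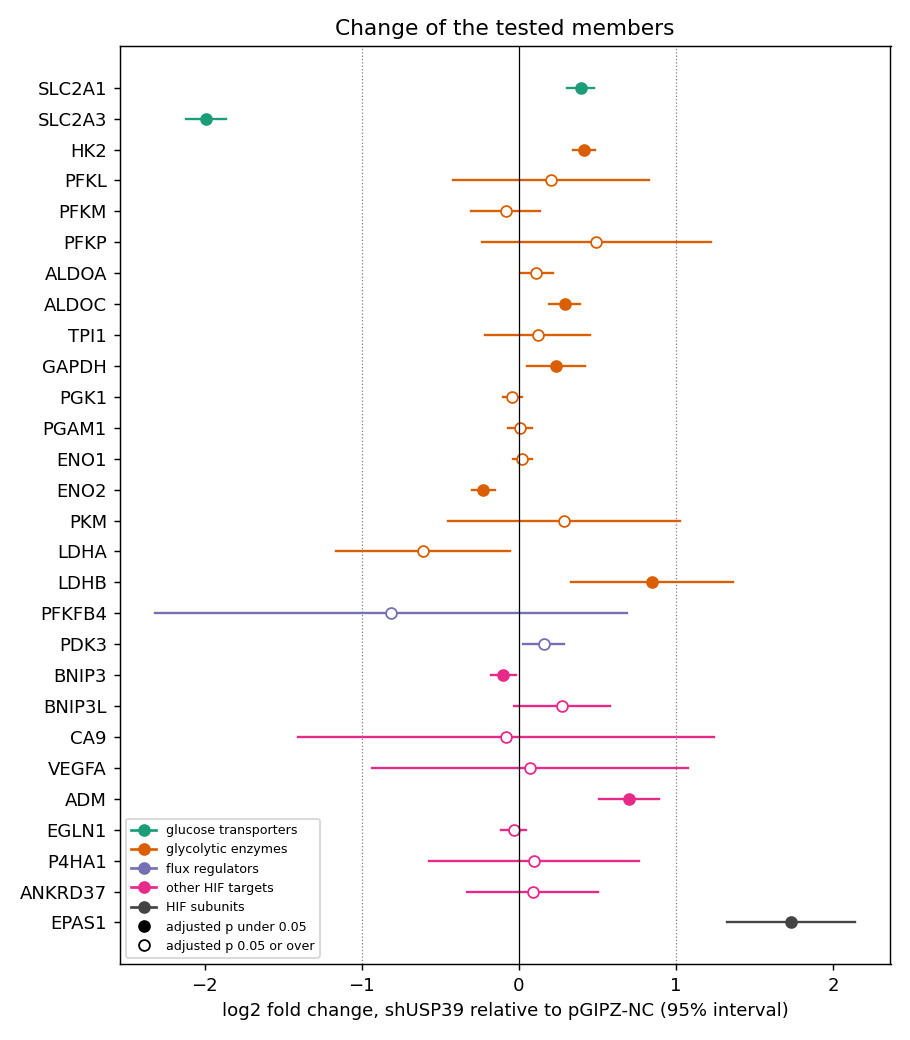
Log2 fold change of shUSP39 relative to pGIPZ-NC for the 28 tested members, with 95% intervals, coloured by role and filled where the adjusted p was under 0.05. SLC2A3 (-1.99) and EPAS1 (1.73) stand beyond the dotted lines at 2-fold, and most others lie near 0.

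The glucose transporters moved in opposite directions. SLC2A3 (GLUT3, chr12:8071826-8171603 on the minus strand of GRCh37) is the high-affinity transporter best known from neurons. Its level was 108, 104 and 111 CPM in pGIPZ-NC replicates 1 to 3 and 27.5, 26.5 and 27.1 CPM in shUSP39 replicates 1 to 3. All controls lay far above all knockdown libraries, and the log2 fold change was -1.99 (SE 0.062, 95% interval -2.12 to -1.86, adjusted p = 3.2e-19), or 3.98-fold lower. Reads of SLC2A3 could be shared with its near-identical copy SLC2A14, which had 0 counts in 5 libraries and 1 count in shUSP39 replicate 2.

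SLC2A1 (GLUT1, chr1:43391024-43424564, minus strand) carries basal glucose uptake in most cells. SLC2A1 and, below, HK2, ALDOC, ENO2, LDHA, PDK3, BNIP3 and EGLN1 are given per library although they were chosen for this after their values were seen. SLC2A1 was at 158, 158 and 157 CPM in the controls and at 199, 213 and 209 CPM under shUSP39. The knockdown libraries were all higher (log2 fold change 0.39, SE 0.042, adjusted p = 3.08e-08). Per kb of transcript, SLC2A1 rose from 46.6 ± 0.216 to 61.2 ± 2.15 CPM (SD, n = 3) while SLC2A3 fell from 28.1 ± 0.978 to 7.07 ± 0.136. The ratio of SLC2A1 to SLC2A3 on that scale was 1.65, 1.73 and 1.60 in the control libraries and 8.18, 9.11 and 8.70 in the knockdown libraries. Their summed level was 74.7 ± 0.767 and 68.2 ± 2.02 CPM per kb.

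Among the 17 glycolytic enzymes, 15 were tested. HK2, ALDOC, GAPDH and LDHB were higher (4 of 15, beside 16.1% of all genes), ENO2 was lower (1 of 15, beside 17.5%), and the other 10 did not pass, with log2 fold changes from -0.61 to 0.49. The median over the 15 was 0.12.

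At the first step, HK2 phosphorylates glucose and is the hexokinase typical of tumours. It was at 383, 391 and 397 CPM in the controls and at 525, 524 and 511 CPM under shUSP39. Every knockdown library was above every control, and the log2 fold change was 0.41 (SE 0.034, adjusted p = 1.77e-10). HK1, the housekeeping hexokinase, had 0 to 8 counts over 3 of its 25 accessions, and GPI, which makes fructose 6-phosphate, had 1 to 5 counts. The phosphofructokinases PFKL, PFKM and PFKP, which commit sugar to glycolysis, overlapped between groups, with log2 fold changes of 0.21, -0.084 and 0.49 and adjusted p-values of 0.654, 0.598 and 0.314.

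The aldolases split fructose bisphosphate. ALDOC, the brain-type enzyme, was at 109, 111 and 107 CPM in the controls and at 132, 132 and 137 CPM under shUSP39, with no overlap (log2 fold change 0.29, SE 0.047, adjusted p = 1.96e-05). ALDOA, the muscle-type enzyme that most tissues use, was at 94.1 ± 0.971 CPM and 102 ± 1.12 CPM (SD, n = 3), with a log2 fold change of 0.11 (adjusted p = 0.0974). Per kb, ALDOC made up 54.2% ± 0.278 of the 2 aldolases in the controls and 57.3% ± 0.762 under shUSP39. ALDOC has 1 accession. ALDOA was measured by 4 transcripts, 3 of them among the 4 that RefSeq lists, and reads they share may have been left out. The share may therefore overstate ALDOC.

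In the middle of the pathway, TPI1, which interconverts the triose phosphates, was seen at 6.10 to 10.3 CPM, and its groups overlapped (adjusted p = 0.629). GAPDH, which oxidises glyceraldehyde 3-phosphate, was at 21.0, 20.6 and 20.9 CPM in the controls and at 25.5, 25.5 and 22.5 CPM under shUSP39. The knockdown libraries were higher, with replicate 3 nearest to the controls, and the log2 fold change was 0.23 (SE 0.089, adjusted p = 0.0454). The call was lost on leaving out any 1 library except shUSP39 replicate 3, with adjusted p-values from 0.0791 to 0.155, and none of its 3 transcripts passed singly.

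The 3 most abundant members per kb were ENO1, an enolase, at 583 CPM per kb, PGAM1, a phosphoglycerate mutase, at 265, and PGK1, a phosphoglycerate kinase, at 248. PGK1 was at 1233, 1211 and 1184 CPM in the controls and at 1184, 1167 and 1175 CPM under shUSP39, the highest knockdown library lying just under the lowest control (log2 fold change -0.041, 95% interval -0.10 to 0.019, adjusted p = 0.305). ENO1 was at 1027, 1043 and 1023 CPM and at 1043, 1045 and 1053 CPM (log2 fold change 0.022, 95% interval -0.037 to 0.082, adjusted p = 0.605). PGAM1 was at 457, 480 and 491 CPM and at 467, 466 and 503 CPM (log2 fold change 0.0067, 95% interval -0.071 to 0.084, adjusted p = 0.918). For each of these genes the interval leaves room for a change of at most about 0.10 on the log2 scale. Together they gave 70.0% to 72.7% of the summed CPM of the glycolytic enzymes in each library, and that sum was 3747 ± 12.1 CPM in the controls and 3843 ± 23.1 CPM under shUSP39 (SD, n = 3). The sum holds PKM, LDHA, LDHB and GAPDH only through some of their transcripts, as given above. Sum and share therefore describe the reads counted and may not give the make-up of glycolytic RNA.

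ENO2, the neuronal enolase, differed from ENO1. It was at 379, 375 and 384 CPM in the controls and at 322, 321 and 330 CPM under shUSP39. All knockdown libraries were lower (log2 fold change -0.23, SE 0.035, adjusted p = 9.98e-06), by 1.17-fold. Its share of the pair of enolases per kb was 22.2% ± 0.384 in the controls and 19.4% ± 0.160 under shUSP39. ENO2 has 1 accession and ENO1 was measured by 2 of its 3, so this share may overstate ENO2.

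At the last steps the transcripts measured were rare. LDHB, the lactate dehydrogenase subunit that favours pyruvate formation, was at 1.94, 2.96 and 1.52 CPM in the controls and at 4.50, 3.37 and 3.72 CPM under shUSP39. The groups did not overlap, and the log2 fold change was 0.84 (SE 0.250, adjusted p = 0.00973). The call was lost without pGIPZ-NC replicate 3 (adjusted p = 0.0623) and without shUSP39 replicate 1 (0.0535). LDHA was at 2.63, 2.52 and 3.26 CPM and at 1.44, 1.70 and 2.37 CPM, lower in every knockdown library, but did not pass (log2 fold change -0.61, 95% interval -1.17 to -0.060, adjusted p = 0.0828); without shUSP39 replicate 3 its adjusted p was 0.0376. PKM was at 0.744 to 1.72 CPM in the controls and 1.28 to 1.60 CPM under shUSP39 (adjusted p = 0.591).

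**Figure D3:**
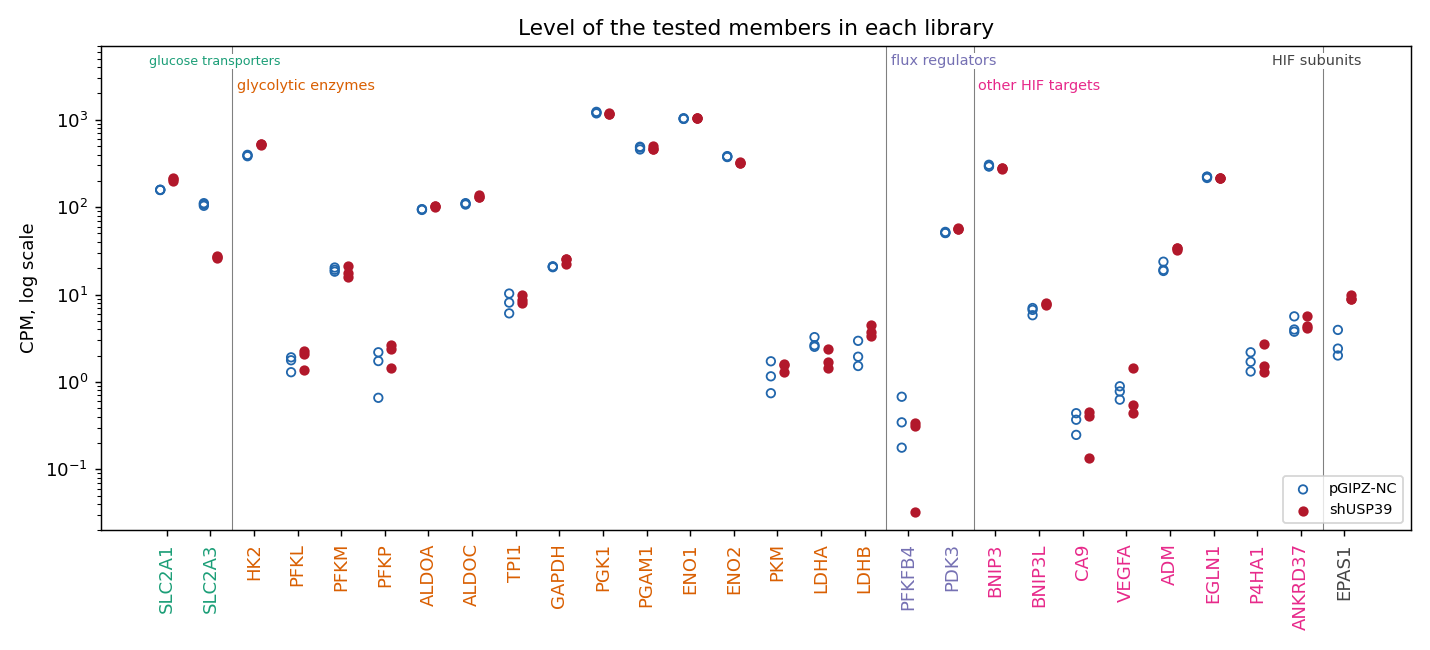
CPM on a log scale in each of the 6 libraries for the 28 tested members, grouped by role, with open blue circles for pGIPZ-NC and filled red circles for shUSP39. The groups separate widely for SLC2A3 and EPAS1 and lie on top of each other for PGK1 and ENO1.

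Of the 4 flux regulators, which set phosphofructokinase activity or the entry of pyruvate into mitochondria, 2 were tested and neither passed edgeR's test, with 1 (PDK3) at an unadjusted p under 0.05. PDK3, a pyruvate dehydrogenase kinase, was at 50.9, 50.5 and 52.1 CPM in the controls and at 58.5, 56.0 and 56.7 CPM under shUSP39. Its knockdown libraries were all higher (log2 fold change 0.16, SE 0.063, adjusted p = 0.0553), and DESeq2's Wald test passed it at an adjusted p of 0.0403. PFKFB4 had 1 to 22 counts (log2 fold change -0.82, 95% interval -2.32 to 0.69, adjusted p = 0.432), and PFKFB3 and PDK1 had at most 19 and 7 counts.

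Of the 10 HIF targets outside glycolysis that had counts, 8 were tested, 1 was higher and 1 was lower (25.0%, beside 33.6% of all genes). ADM (chr11:10326620-10328944, plus strand) encodes adrenomedullin, a vasodilator peptide. Its level was 23.8, 18.6 and 19.2 CPM in the controls and 33.97, 34.1 and 32.0 CPM under shUSP39. All knockdown libraries were above the highest control, and the log2 fold change was 0.70 (SE 0.093, 95% interval 0.51 to 0.89, adjusted p = 9.56e-07), or 1.62-fold higher.

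BNIP3, a mitophagy receptor, was at 306, 292 and 295 CPM in the controls and at 278, 271 and 284 CPM under shUSP39. The groups did not overlap, although the highest knockdown library lay close to the lowest control, and the log2 fold change was -0.099 (SE 0.038, adjusted p = 0.0442). Leaving out any 1 library except shUSP39 replicate 3 ended this call (adjusted p 0.0535 to 0.171). Its relative BNIP3L was at 6.50 ± 0.626 CPM and 7.85 ± 0.182 CPM (log2 fold change 0.27, adjusted p = 0.166).

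EGLN1, the main oxygen-sensing prolyl hydroxylase and itself a HIF target, was at 222, 224 and 216 CPM and at 217, 216 and 213 CPM, with a log2 fold change of -0.034 (95% interval -0.11 to 0.047, adjusted p = 0.559). CA9, the carbonic anhydrase often used as a marker of hypoxia, had 4 to 14 counts in any library, and its groups overlapped (95% interval of the log2 fold change -1.40 to 1.24). For VEGFA the interval was -0.93 to 1.07, for P4HA1, a collagen prolyl hydroxylase, -0.57 to 0.76, and for ANKRD37 -0.33 to 0.50. The interval of VEGFA leaves room for a 2-fold rise, and that of CA9 for a 2-fold change in either direction. EGLN3, another prolyl hydroxylase, and NDRG1, a stress-response gene, had at most 20 and 6 counts.

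Of the HIF subunits, 1 was tested. EPAS1 (HIF-2 alpha, chr2:46520806-46613836, plus strand) was at 2.01, 3.94 and 2.41 CPM in the controls and at 8.97, 8.89 and 10.01 CPM under shUSP39. These are 64, 128 and 68 counts against 287, 272 and 296, with a wide gap between the groups. The log2 fold change was 1.73 (SE 0.199, 95% interval 1.32 to 2.14, adjusted p = 9.47e-08), or 3.32-fold higher. HIF1A, the alpha subunit most cells use, was measured only by NM_001243084.1, 1 of its 3 accessions, at 4, 5 and 5 counts in the controls and 10, 5 and 5 under shUSP39. ARNT, measured only by NM_001286035.1, had 5, 5 and 2 counts and 1, 13 and 5 counts. Neither HIF1A nor ARNT could be tested.

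**Figure D4:**
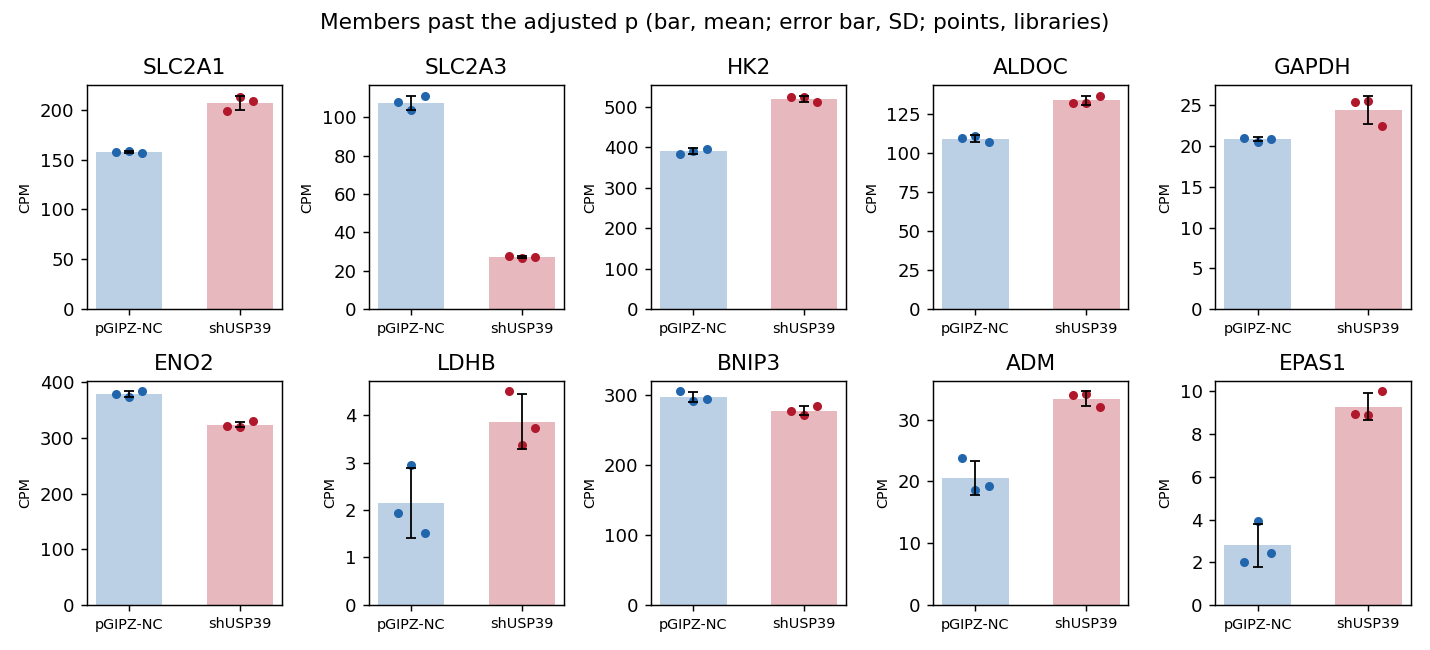
CPM of the 10 members past the adjusted p, 1 panel each, with bars for the group mean, error bars for the SD (n = 3) and points for the libraries. SLC2A3 drops from a mean of 108 to 27.0 CPM, EPAS1 rises from 2.79 to 9.29 CPM, and the other 8 differ by less than 2-fold.

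To set the enzymes beside the other HIF targets, the 2 lists were described by the same measures without a test of the lists. Of 15 glycolytic enzymes 33.3% passed, and of 8 other HIF targets 25.0%, beside 33.6% of all genes. The median log2 fold change against the control mean was 0.070, 0.14 and 0.092 in shUSP39 replicates 1, 2 and 3 for the enzymes, and -0.054, 0.37 and -0.058 for the other targets. The targets' medians took both signs, replicate 2 lying apart. The summed level of the other targets was 553 ± 10.2 CPM in the controls and 543 ± 1.66 CPM under shUSP39. Each list held members higher and members lower under shUSP39, though BNIP3 was the only lower target past the adjusted p. That call was lost on leaving out any 1 library except shUSP39 replicate 3.

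Since shUSP39 replicates 2 and 3 had counts in more genes, replicate 1 alone was also set against the 3 controls, a comparison added after the data were seen that assumes the lone library varies like the controls. SLC2A1, HK2, ALDOC, LDHB, ADM and EPAS1 were again higher and SLC2A3 and ENO2 lower, where 19.7% of 11374 genes passed. GAPDH (adjusted p = 0.118) and BNIP3 (0.231) did not pass. With genes at a mean of at least 10 CPM only, also added later, 15 members were tested and 9 passed (60%), beside 49.4% of all such genes. The 9 were SLC2A1, HK2, ALDOA, ALDOC, GAPDH, PDK3 and ADM, which were higher, and SLC2A3 and ENO2, which were lower, and SLC2A3 alone was beyond 2-fold (1 of 15, beside 2.91%).

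Because USP39 acts in splicing, the members were also examined transcript by transcript. Of all 12553 transcripts tested 14.2% were higher and 15.1% lower. Of the 57 transcripts of the members, some of them below the filter and not tested, 7 were higher and 2 lower. Those higher were the transcripts of SLC2A1, HK2, ALDOC, LDHB, ADM and EPAS1 and NM_001142386.2 of PDK3 (adjusted p = 0.0469), and those lower were the transcripts of SLC2A3 and ENO2. A test of transcript usage, which asks whether the transcripts of 1 gene move apart, could be made for ALDOA, ENO1, GAPDH, PFKM, PFKP, PGAM1 and TPI1. With edgeR's diffSpliceDGE 0 of these 7 passed, beside 3.69% of 1628 genes. By edgeR's unadjusted p under 0.05 there was 1, ALDOA, whose adjusted p was 0.178, and the other adjusted p-values were 0.508 or more. Without shUSP39 replicate 1 the number past the adjusted p was 1. The usage test sees only the transcripts with counts in the table, so a switch to or from the others could not be seen.

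Other genes of the same pathways were taken from lists that do not overlap with the members. Of 31 further glycolysis and gluconeogenesis genes 16 were tested, 4 were higher and 1 was lower (31.2%, beside 33.6% of all genes), and the median change was 0.27 on the log2 scale. Among those past the test the largest changes were ENO3, the muscle enolase, at -1.60 (adjusted p = 1.9e-06), and the sugar transporters SLC2A12 at 0.81 (0.00101) and SLC2A6 at 0.63 (0.00171). PFKFB2, which makes the activator of phosphofructokinase and was named after its values were seen, was at 102, 95.2 and 96.7 CPM in the controls and at 146, 149 and 151 CPM under shUSP39. It was higher in all knockdown libraries, by 0.60 (SE 0.048, adjusted p = 1.18e-10), while PFKFB3 and PFKFB4 were near the limit of counting.

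Of 12 genes of pyruvate oxidation 8 were tested and 2 passed, both lower (25.0%, beside 17.5% of all genes lower and 33.6% in either direction). DLAT, the core acetyltransferase of the pyruvate dehydrogenase complex, was at 486, 460 and 449 CPM in the controls and at 397, 389 and 373 CPM under shUSP39, with no overlap (log2 fold change -0.27, SE 0.037, adjusted p = 2.15e-06). PDK4, a kinase that inhibits the complex, was rare at 0.864 ± 0.249 and 0.215 ± 0.0845 CPM (log2 fold change -1.98, adjusted p = 0.00801). Of 8 pentose phosphate genes 7 were tested and 42.9% of these passed, beside 33.6% of all genes. TKT, transketolase, was higher (0.28, adjusted p = 0.0115), and H6PD, the dehydrogenase of the endoplasmic reticulum (-0.67, 0.0182), and TALDO1, transaldolase (-0.16, 0.000413), were lower.

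Of 28 further HIF targets 23 were tested, 7 were higher and 5 were lower. These 12 were 52.2% of those tested, beside 33.6% of all genes. The median log2 fold change over the 23 tested was -0.018. STC2, a secreted glycoprotein of the stress response, was at 67.5, 60.9 and 63.0 CPM in the controls and at 175, 174 and 174 CPM under shUSP39, higher in every knockdown library (log2 fold change 1.45, SE 0.051, adjusted p = 3.9e-18). BHLHE41, a transcriptional repressor, had a log2 fold change of -1.79 (adjusted p = 2.65e-10). These genes too moved in both directions.

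Of 16 regulators of HIF stability and activity 13 were tested, 2 were higher and 2 were lower (30.8%, beside 33.6% of all genes), with a median of -0.027. SIAH1 and SIAH2, ubiquitin ligases that act on prolyl hydroxylases, were at 0.54 (adjusted p = 0.00209) and 0.31 (0.00021), and the coactivator CREBBP was at -0.36 (0.0287). The fourth was RBX1, a ring protein of the ubiquitin ligase that destroys HIF alpha, at -0.21 (0.00068), named after its values were seen.

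HIF binds a short core, ACGTG or GCGTG, in the promoters of its targets, and the promoters of the members were therefore read from RefSeq (GRCh38.p14) in windows from 250 bases before to 50 after each annotated start. Of the 36 members 32 had a window, 55 windows in all. The core, sought on both strands, was present in at least 1 window of 29 members (90.6%), beside 69.8% of the 8715 tested genes with a window (81.5% of those tested). The 29 include members below the count filter, and a gene with several windows has more chances to hold the core. By window, with that of P4HA2 included, 66.1% of the members' windows held it, beside 56.1% of those of all symbols in the table. It was present for all 7 members that were higher, for both members that were lower and had a window, and for 15 of 16 tested members that did not pass. For SLC2A1 and LDHB, both higher, and for PKM, which did not pass, no core lay wholly within the 250 bases before the start. CACGTG, the E-box of MYC and related factors, which contains ACGTG, was in a window of 8 members (25.0%), beside 12.5% of the tested genes. By window the shares were 14.3% for the members, with P4HA2 included, and 8.52% for all symbols in the table.

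The 250 bases before the start are printed for 3 members that rose, ADM, EPAS1 and ALDOC. They are also printed for ENO2 and BNIP3, the 2 that fell and had a window. PGK1, which did not pass and had the highest CPM before scaling by length, was added. SLC2A1 and LDHB, which also rose, held no core wholly within these bases and are not printed. Each printed sequence holds the core, so they are examples and do not show how common it is. Each runs 5′ to 3′ on the strand of its gene, and capitals mark the core on either strand (CACGT and CACGC being its reverse complement). They lie at chr11:10304823-10305072 (plus strand, ADM), chr2:46297157-46297406 (plus strand, EPAS1), chr17:28576896-28577145 (minus strand, ALDOC), chr12:6914330-6914579 (plus strand, ENO2), chr10:131981924-131982173 (minus strand, BNIP3) and chrX:78103998-78104247 (plus strand, PGK1).
ADM: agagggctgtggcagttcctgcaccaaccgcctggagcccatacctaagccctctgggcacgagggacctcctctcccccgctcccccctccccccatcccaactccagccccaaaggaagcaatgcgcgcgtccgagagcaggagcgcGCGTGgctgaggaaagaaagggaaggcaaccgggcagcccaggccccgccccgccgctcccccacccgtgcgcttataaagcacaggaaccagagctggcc
EPAS1: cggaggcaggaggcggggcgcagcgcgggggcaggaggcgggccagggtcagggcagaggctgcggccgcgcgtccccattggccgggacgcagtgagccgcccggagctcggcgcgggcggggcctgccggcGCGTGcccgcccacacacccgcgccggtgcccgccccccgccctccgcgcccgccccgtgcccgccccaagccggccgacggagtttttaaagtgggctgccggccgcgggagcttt
ALDOC: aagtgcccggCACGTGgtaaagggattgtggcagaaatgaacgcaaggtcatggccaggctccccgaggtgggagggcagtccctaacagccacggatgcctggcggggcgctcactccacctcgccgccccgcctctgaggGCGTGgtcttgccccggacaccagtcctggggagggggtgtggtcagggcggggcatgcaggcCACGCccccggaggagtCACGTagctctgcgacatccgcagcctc
ENO2: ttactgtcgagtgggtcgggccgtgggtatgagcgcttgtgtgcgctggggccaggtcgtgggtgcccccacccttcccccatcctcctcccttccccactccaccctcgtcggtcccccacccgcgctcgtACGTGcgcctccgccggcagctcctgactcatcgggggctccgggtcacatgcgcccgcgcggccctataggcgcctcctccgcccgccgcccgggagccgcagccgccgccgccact
BNIP3: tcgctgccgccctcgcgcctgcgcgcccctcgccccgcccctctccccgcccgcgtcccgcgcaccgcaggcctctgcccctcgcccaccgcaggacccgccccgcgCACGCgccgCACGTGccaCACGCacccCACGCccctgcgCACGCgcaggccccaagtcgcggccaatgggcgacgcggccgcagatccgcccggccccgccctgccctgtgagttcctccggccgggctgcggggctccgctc
PGK1: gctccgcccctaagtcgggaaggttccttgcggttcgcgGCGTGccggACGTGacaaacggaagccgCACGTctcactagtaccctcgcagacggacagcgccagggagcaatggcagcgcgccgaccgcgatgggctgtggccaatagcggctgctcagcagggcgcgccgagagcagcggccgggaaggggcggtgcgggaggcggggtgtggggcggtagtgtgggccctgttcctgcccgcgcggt
Counted on each strand, so that CACGTG counts on both, the core occurs 1, 1, 5, 1, 6 and 3 times, in the order printed. A match is a description of the letters and not a site in use, and binding was not measured here.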

How the data were processed

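The data are RNA-seq libraries of A2780 cells, 3 pGIPZ-NC and 3 shUSP39, grouped and numbered by their labels. The authors deposited 1 table of counts, which gives for each RefSeq transcript the raw number of reads in every library. The submitters' processing notes name HISAT2, Cufflinks and the build hg19, and which of them made the counts, the annotation, the counter and the use of strand are not given in the sources used here. The authors' columns of group means, fold, p-values and q-values were not used. Reads shared by transcripts of 1 gene may have been left out of the counts, and genes with near-identical copies or overlapping neighbours are uncertain, among the members ENO1, PGAM1, PGK1, GAPDH and SLC2A3.

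Counts of 21368 transcripts were summed to 16571 symbols, and 46 of 47 symbols in the form of a date were replaced through the accession. After filterByExpr and TMM scaling, genes were tested with edgeR 4.0.16 (R 4.3.3) by robust quasi-likelihood with the group as the only term. Benjamini-Hochberg adjustment ran over all 10695 genes tested with a threshold of 0.05. CPM were computed here with TMM library sizes, and CPM per kb with the length of the MANE transcript in GENCODE release 44 on GRCh37. Depth ranged from 28294819 to 32939264 counts per library, and low counts limit the precision of rare transcripts. Transcript usage was tested with diffSpliceDGE. The gene fit was tested on simulated counts in which 200 genes were changed, each by more than most of the changes reported here. The alternatives were other scaling (DESeq2 size factors, upper quartile, library size), other filters, the DESeq2 1.42.0 Wald test, limma-voom (limma 3.58.1), a replicate block, each library left out in turn, the highest transcript of each gene and genes with a single transcript.

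The members, the role and pathway lists and the tests were chosen with earlier results of these data known. Values per library were given for members with an absolute log2 fold change of at least 0.5 and an adjusted p under 0.05, the HIF subunits, GAPDH and the 3 most abundant members, and at most 3 genes past the adjusted p were named per pathway list. Exceptions are stated, and 1 gene of these lists is not reported here. The labels call the libraries biological triplicates of 1 cell line, so p-values measure the spread between cultures of that line.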

Additional observations from a re-analysis of the deposited data

How the results depend on the processing

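Of the 10 members past the adjusted p, SLC2A3, SLC2A1, HK2, ALDOC, ENO2, ADM and EPAS1 kept their direction and their call on leaving out each library in turn, with log2 fold changes of -2.02 to -1.97, 0.37 to 0.42, 0.40 to 0.43, 0.27 to 0.30, -0.24 to -0.22, 0.63 to 0.82 and 1.54 to 2.07. LDHB, GAPDH and BNIP3 did not, as given above. GAPDH was also lost with no filter (adjusted p = 0.0736) and with the highest transcript of each gene (0.216), and BNIP3 with no filter (0.0508), with library size only (0.137), with upper-quartile scaling (0.285), where every library had to hold at least 10 counts (0.0527), with the highest transcript (0.0589) and with single-transcript genes (0.0632). The count of lower HIF targets outside glycolysis, 1 as reported, was accordingly 0 under these 6 settings, with genes of at least 10 CPM and with shUSP39 replicate 1 alone, and 0 to 1 with a library left out. The cause was not tested. PDK3 passed with library size only (0.0261), with upper-quartile scaling (0.0143), where every library had to hold at least 10 counts (0.049), with the block (0.0355), with DESeq2's Wald test (0.0403) and with the highest transcript (0.039), and ALDOA with upper-quartile scaling (0.0187) and library size only (0.0385).

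The number of members beyond 2-fold was 1 with genes of at least 10 CPM, where EPAS1 was not tested, and 2 to 3 with a library left out. With a library left out, glycolytic enzymes numbered 2 to 4 higher (2 without pGIPZ-NC replicate 3 and without shUSP39 replicate 1) and 1 to 2 lower (2 without shUSP39 replicate 3), and 5 were higher with upper-quartile scaling or library size only. Their median was 0.16 with upper-quartile scaling, 0.20 with no filter, 0.22 for single-transcript genes, 0.052 with at least 10 CPM, 0.017 with shUSP39 replicate 1 alone, and 0.047 to 0.13 with a library left out. Without a filter the median of all genes was itself 0.12. With a library left out, member transcripts numbered 2 to 4 lower (4 without shUSP39 replicate 3), and 0 to 1 members passed the usage test.

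Upper-quartile scaling gave 2077 higher genes of 3578 past the test, beside 1726 of 3598 with TMM, and turned PGK1 to 0.0032 and EGLN1 to 0.011. VEGFA turned to -0.12 with limma-voom and -0.065 with the block. With shUSP39 replicate 1 alone, PFKP was -0.085, TPI1 -0.029, PGAM1 -0.030, CA9 0.20, VEGFA -0.80, P4HA1 -0.18 and ANKRD37 -0.11. With a library left out PFKM ranged from -0.21 to 0.0044, TPI1 from -0.060 to 0.31, PGAM1 from -0.030 to 0.024, CA9 from -0.37 to 0.28, VEGFA from -0.65 to 0.37, P4HA1 from -0.30 to 0.30 and ANKRD37 from -0.074 to 0.28. None of these 10 genes passed the test as reported, and their direction is not given by these data.

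Libraries with the same replicate number deviated together with correlations of 0.069, 0.0048 and 0.022, so the numbers were not taken to pair the libraries. With the replicate number as a block 3981 genes passed, beside 3598, and 8 members were higher, PDK3 being the one added, and 3 were lower. Rare transcripts and the 8 untested members are limited by their low counts, the cause of which was not tested.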

Other observations

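Among the further HIF targets, 3 abundant genes that the naming rule left out and that were chosen after their values were seen also moved in both directions. HMOX1, heme oxygenase 1, was at 490, 504 and 496 CPM in the pGIPZ-NC libraries and at 675, 712 and 715 CPM under shUSP39, higher in every knockdown library (log2 fold change 0.50, SE 0.034, adjusted p = 4.51e-12 by edgeR's quasi-likelihood test). CITED2, which competes with HIF for its coactivators, was at 77.9 ± 2.30 CPM and 119 ± 6.37 CPM (SD, n = 3; log2 fold change 0.61, adjusted p = 8.71e-10 by the same test). LOX, the lysyl oxidase that crosslinks collagen, was at 1039, 1133 and 1076 CPM and at 706, 735 and 742 CPM, lower in every knockdown library (log2 fold change -0.57, SE 0.034, adjusted p = 3.32e-13).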
